A study of Mus musculus with 5 samples.

Results

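The guanylate-binding proteins (GBPs) and the immunity-related GTPases (IRGs) were examined in CRC tumours of mice kept at 30 °C or at 4 °C. Members were the entries of the deposited count table that carry 1 of 10 gene symbols. These were the guanylate-binding genes Gbp2, Gbp3, Gbp4, Gbp5, Gbp6 and Gbp7 and the immunity-related genes Irgm1, Irgm2, Igtp and Iigp1. All 10 were found once each among 54113 entries with a name. RNA was sequenced from 5 samples labelled as CRC tumour tissue of C57BL/6 mice. The mouse CRC line that the study implants in this strain is MC-38, a colon adenocarcinoma line, and no altered allele is given for these hosts. Of these tumours, 3 came from mice held at the thermoneutral 30 °C and 2 from mice held at 4 °C, in both cases for 2 weeks. For cold exposure the study used young mice of both sexes, kept at an intermediate temperature before the cold, but the age and sex of each of these 5 mice are not given in the sources used here.

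GBPs and IRGs are large GTPases that cells make in response to interferons, above all interferon-γ from T and natural killer cells. They assemble on the membranes of vacuoles that hold parasites or bacteria, break these membranes and deliver the content to autophagy or to inflammasomes. In mice they stand in gene clusters that arose by duplication, and macrophages, dendritic cells and many non-immune cells express them. Interferon-γ acts on genes with gamma-activated sites (GAS), and type I interferon acts on genes with interferon-stimulated response elements (ISRE). Members of the IRF family, such as IRF1, also bind ISRE-like letters.

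The start regions of the members are shown first, because these letters are where both interferon pathways meet the genes. RefSeq windows on GRCm38.p6, reaching from 250 bases before to 50 bases after an annotated transcription start, were at hand for 7 members. All windows were searched for the GAS letters TTCNNNGAA, which read the same on both strands. They were also searched on both strands for the ISRE letters, which are GAAA, any 2 bases and again GAAA (TTTC, 2 bases and TTTC on the other strand). ISRE letters occurred in 7 of the 7 members, against 3.99% of the 27025 genes with a window. GAS letters occurred in 4 of the 7, namely Gbp5, Gbp7, Irgm2 and Igtp, against 9.55% of all genes. For Gbp3, which has a pair of windows, only the first held a match. The 180 bases before the start are printed from 5′ to 3′ on the strand of the gene, with matches to either motif in capitals. They lie at chr3:142620483-142620662 for Gbp2, chr3:142559864-142560043 for Gbp3, chr3:142496754-142496933 for Gbp5 and chr3:142530156-142530335 for Gbp7, all on the plus strand. Those of the IRG genes lie at chr11:48871421-48871600 on the minus strand for Irgm1 and on the plus strand at chr11:58214797-58214976 for Irgm2 and chr11:58199376-58199555 for Igtp.
Gbp2: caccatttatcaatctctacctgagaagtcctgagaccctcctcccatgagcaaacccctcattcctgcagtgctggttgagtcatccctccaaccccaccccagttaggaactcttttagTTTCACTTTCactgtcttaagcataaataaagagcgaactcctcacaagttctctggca
Gbp3: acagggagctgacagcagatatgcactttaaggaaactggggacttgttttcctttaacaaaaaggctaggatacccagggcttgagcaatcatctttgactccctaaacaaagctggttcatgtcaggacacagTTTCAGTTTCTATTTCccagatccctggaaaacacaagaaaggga
Gbp5: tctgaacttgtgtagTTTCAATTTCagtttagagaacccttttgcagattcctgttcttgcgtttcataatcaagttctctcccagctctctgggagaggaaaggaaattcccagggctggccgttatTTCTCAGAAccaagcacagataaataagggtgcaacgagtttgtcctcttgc
Gbp7: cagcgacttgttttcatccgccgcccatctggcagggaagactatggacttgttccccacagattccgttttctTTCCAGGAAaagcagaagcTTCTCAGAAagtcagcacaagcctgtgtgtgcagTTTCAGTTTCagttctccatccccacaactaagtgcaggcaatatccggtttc
Irgm1: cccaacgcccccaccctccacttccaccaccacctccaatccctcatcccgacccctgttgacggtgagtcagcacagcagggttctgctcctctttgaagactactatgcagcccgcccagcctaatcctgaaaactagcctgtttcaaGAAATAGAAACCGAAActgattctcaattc
Irgm2: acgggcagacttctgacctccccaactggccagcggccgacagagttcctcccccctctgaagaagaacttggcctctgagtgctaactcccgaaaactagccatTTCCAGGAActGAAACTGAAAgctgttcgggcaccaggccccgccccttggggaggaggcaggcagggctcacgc
Igtp: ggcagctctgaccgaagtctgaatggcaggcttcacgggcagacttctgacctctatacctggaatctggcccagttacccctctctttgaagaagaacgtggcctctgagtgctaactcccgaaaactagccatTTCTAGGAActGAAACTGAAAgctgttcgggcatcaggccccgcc
The runs show that in Irgm2 and Igtp the GAS letters end 2 bases before the ISRE letters begin. This order, TTCNNNGAA, any 2 bases and then the ISRE letters, was looked for after the matches had been seen. It occurred in 5 of 32851 windows on either strand, 0.0152% of them, and these belonged to Irgm2, Igtp, the IRG family genes Tgtp1 and Tgtp2 and the predicted gene Gm12185, all on chromosome 11. In Gbp3 and Irgm1, 2 ISRE matches overlapped each other. In Gbp2 a single ISRE match lay at positions −59 to −50, where −1 is the base before the start. Gbp5 held a further GAS match at −245 to −237, outside the printed run. For Gbp2, Gbp3, Gbp5, Irgm1 and Irgm2 the RefSeq start lies inside the gene as annotated in GENCODE M21, so that other transcripts may start elsewhere, and the printed runs of Gbp5, Irgm1 and Irgm2 lie within the annotated gene. A match of letters is a description and does not show that a factor was bound in these tumours.

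**Figure D1:**
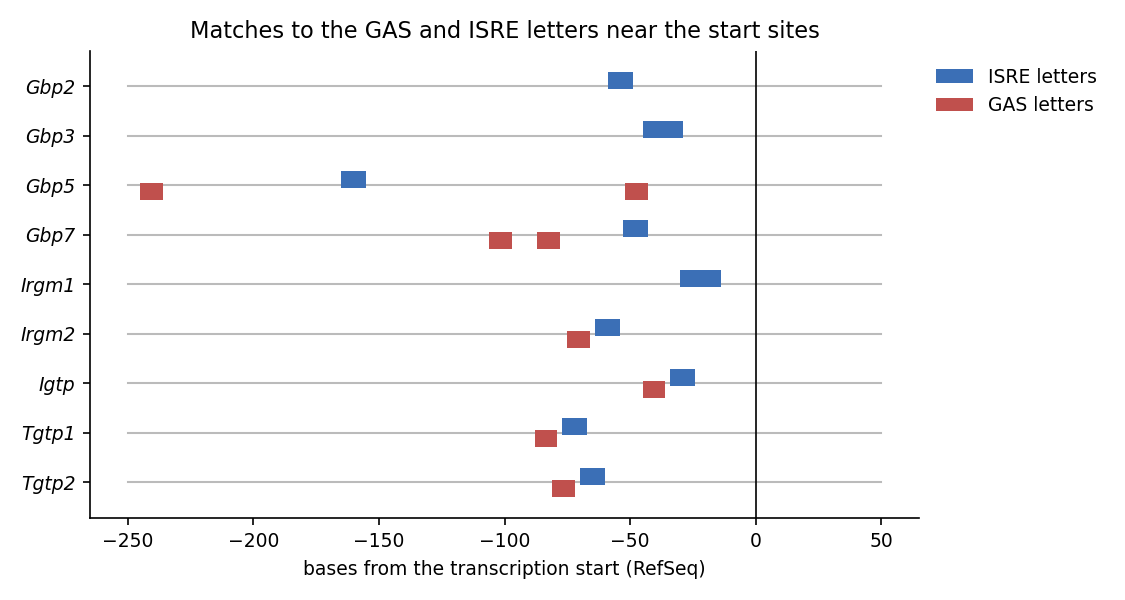
Matches to the GAS letters (red, drawn low) and the ISRE letters (blue, drawn high) by distance in bases from the RefSeq transcription start, for the 7 members with a window (first window for Gbp3) and for Tgtp1 and Tgtp2. Grey lines span the 250 bases before and 50 bases after the start; in Irgm2, Igtp, Tgtp1 and Tgtp2 the GAS match is followed by the ISRE match after 2 bases.

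The libraries held 16191708 to 20320525 counts on named genes. Genes of pancreatic acinar cells took 27.8% of the counts in 30 °C replicate 2 and at most 0.262% in each of the other 4 libraries. The tumour label was checked against 10 epithelial and colon carcinoma markers. Their summed level was 17.7 to 228 CPM (counts per 1000000 counts of a library, scaled by the TMM method) in the 5 libraries, and Cdx1 had 0 counts in all of them, whereas 10 B cell markers summed to 1395 to 4153 CPM, 8 markers of splenic stroma to 289 to 464 CPM and 10 erythroblast markers to 11970 to 35367 CPM. The carcinoma markers were thus low beside those of blood-forming and splenic cells, the values do not bear out the label by these markers, and the word tumour is used below only as the label gives it. The highest carcinoma sum, 228 CPM, was in 30 °C replicate 2, the library with the most acinar counts. The next, 89.7 CPM, was in 4 °C replicate 2, the library with the next most. Each result below is therefore also given, where it matters, without 30 °C replicate 2. In bulk tissue, fewer cells of a type and less RNA per cell cannot be told apart.

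Counts of the members ranged from 86 for Gbp6 in 30 °C replicate 2 to 2358 for Irgm1 in 30 °C replicate 3, and all 10 passed the filter on low counts. Their levels were compared on this TMM scale, which corrects for a few genes taking a large share of a library. Summed over the members, the level was 536, 489 and 547 CPM in the 3 tumours at 30 °C and 559 and 530 CPM in the 2 tumours at 4 °C, so the sums of the groups overlapped. Without this scaling, 30 °C replicate 2 held only 360 CPM, against 547 to 617 in the other libraries.
By level per kilobase of annotated exon (GENCODE M21), Igtp came first, with 39.0 CPM per kb at 30 °C and 43.8 at 4 °C. Gbp2 was next, with 23.3 and 32.1. Their ranges over the 5 tumours overlapped, from 35.1 to 46.2 for Igtp and from 20.3 to 36.7 for Gbp2. Irgm1, Irgm2 and Gbp3 formed a middle group between 13.7 and 18.5 CPM per kb whose ranges overlapped one another, and Gbp2 lay above this group in every tumour. Gbp7, Iigp1, Gbp5 and Gbp4 followed, between 3.25 and 10.2 CPM per kb, with each range overlapping the next. Gbp6 was lowest, at 1.19 to 1.75, below every other member in every tumour. Exon lengths count the exons of all annotated transcripts, so members with long unused exons are placed too low in this order.

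The comparison of 4 °C with 30 °C asks whether cold exposure of the host goes with a change of these genes in the tumour. No member passed an adjusted p of 0.05 with edgeR's quasi-likelihood test, where the background was 0% of 16133 genes tested. The lowest edgeR adjusted p over all genes was 0.69. With the DESeq2 Wald test 0 members passed as well, against 0.731% of all genes. DESeq2 gave 4436 of the genes no adjusted p, and here and below they count as not called in this share. At an unadjusted p under 0.05 there were 0 members with edgeR, against 6.76% of all genes. The fitted change was positive for 7 members and negative for 3, with a median log2 fold change of 0.17, and log2 fold changes lay between −0.49 and 0.46. Over all genes tested, 50.7% were positive and the median was 0.0064. Without 30 °C replicate 2 the median of the members was 0.10. In 3 members the tumours at 4 °C did not overlap those at 30 °C, which were Gbp2 and Gbp6 (higher) and Irgm1 (lower), and this was the case for 23.3% of all genes, 12.2% higher and 11.0% lower.

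**Figure D2:**
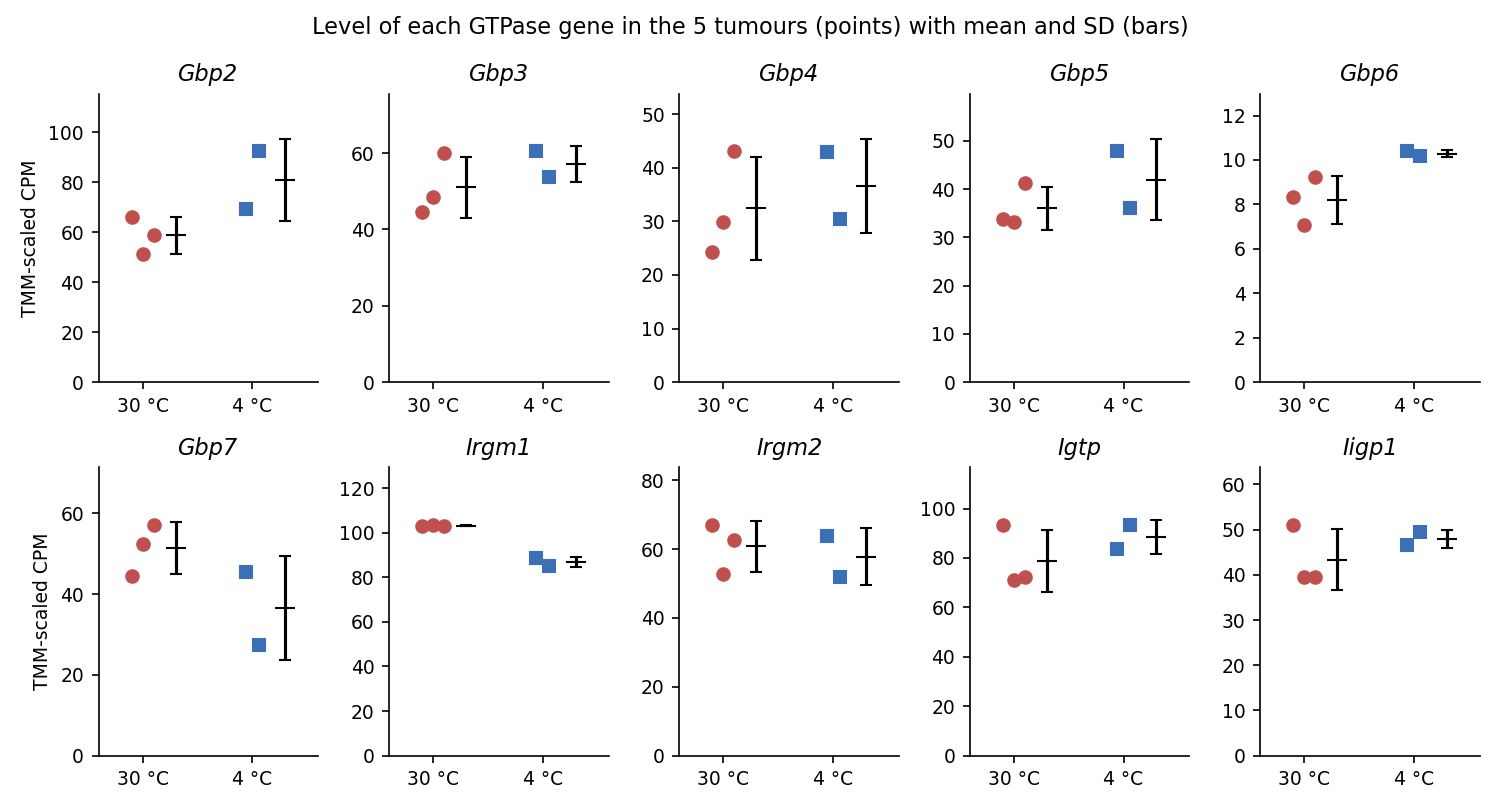
TMM-scaled CPM (vertical axis, linear, from 0) of the 10 members in the 3 tumours at 30 °C (red circles) and the 2 tumours at 4 °C (blue squares); black bars give the mean and SD of each group. The groups are separate in Gbp2, Gbp6 and Irgm1 (Irgm1 overlaps without TMM scaling) and overlap in the other 7.

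Among the guanylate-binding genes of chromosome 3, Gbp2, whose protein carries a lipid anchor and is recruited early to vacuoles of Toxoplasma, had the largest positive change. The gene spans chr3:142620602-142638008 on the plus strand of GRCm38. Its level was 66.0, 51.1 and 58.9 CPM at 30 °C and 69.2 and 92.4 CPM at 4 °C. Both cold tumours were above all warm ones, although 4 °C replicate 1 exceeded the highest warm tumour by less than the SD at 30 °C. The means were 58.7 ± 7.46 (SD, n = 3) and 80.8 ± 16.4 (SD, n = 2). The log2 fold change was 0.46 (standard error, SE, 0.21, 95% interval −0.033 to 0.96, edgeR adjusted p = 0.75), and it ranged from 0.22 to 0.66 when any 1 tumour was left out.
Gbp7, a neighbour of Gbp2 in the same cluster that has been linked to assembly of the phagocyte oxidase, had the largest negative change. It spans chr3:142530342-142550149 on the plus strand. It stood at 44.4, 52.5 and 57.2 CPM at 30 °C and at 45.6 and 27.5 CPM at 4 °C. Only 4 °C replicate 2 lay below the warm tumours, so the groups overlapped. The log2 fold change was −0.49 (SE 0.26, 95% interval −1.12 to 0.14, edgeR adjusted p = 0.78), and it was −0.19 without 4 °C replicate 2 and −0.90 without 4 °C replicate 1. The log2 ratio of Gbp2 to Gbp7 was 0.57, −0.039 and 0.043 in the warm tumours and 0.60 and 1.75 in the cold ones. This ratio was formed after the values had been seen and was not tested.
Gbp5, chr3:142493978-142522344 on the plus strand, encodes a protein that promotes assembly of the NLRP3 inflammasome. It measured 33.7, 33.1 and 41.2 CPM at 30 °C and 47.8 and 36.0 CPM at 4 °C. Gbp3, chr3:142560026-142573209 on the plus strand, measured 44.6, 48.5 and 59.9 CPM at 30 °C and 60.5 and 53.8 CPM at 4 °C. In both genes 30 °C replicate 3 lay between the cold tumours. Their log2 fold changes were 0.22 (SE 0.21) and 0.16 (SE 0.19), with adjusted p of 0.87 and 0.89 from edgeR. When any 1 tumour was left out, that of Gbp5 ran from 0.00031 (without 4 °C replicate 1) to 0.40 (without 4 °C replicate 2), and that of Gbp3 from 0.074 (without 30 °C replicate 1) to 0.30 (without 30 °C replicate 3). An entry wholly inside the exons of Gbp7, Gm43802, had 0 counts in every library, and it covers 11.3% of the exon bases of Gbp7.

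The chromosome 5 members, Gbp4 and Gbp6, belong to another cluster of guanylate-binding genes and lie on the minus strand at chr5:105115767-105139586 and chr5:105270702-105293698. Gbp6 was the least abundant member, with 8.36, 7.06 and 9.21 CPM at 30 °C and 10.4 and 10.2 CPM at 4 °C. Both cold tumours were above all warm ones. The log2 fold change was 0.32 (SE 0.24, 95% interval −0.24 to 0.89, edgeR adjusted p = 0.84). Gbp4 measured 24.3, 29.9 and 43.1 CPM at 30 °C and 42.9 and 30.4 CPM at 4 °C, so that each cold tumour had a warm counterpart at nearly the same level. Its log2 fold change was 0.17 (SE 0.29, edgeR adjusted p = 0.93), with −0.095 without 4 °C replicate 1 and 0.44 without 4 °C replicate 2. Genes of this cluster are close copies, and how the counting handled reads that fit more than 1 copy is not given in the sources used here, so their values are uncertain. Exons of Gbp6 share 29.0% of their bases with Gm43302, which had 0 to 2 counts per library. Those of Gbp4 share 61 bases with Gbp8 and 60 with Gbp9 on the same strand, or 0.814% and 0.801% of the exon bases of Gbp4.

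Irgm1, Irgm2 and Igtp encode the regulatory IRG proteins, which sit on the membranes of the host cell and hold effector IRG proteins inactive there. They lie on chromosome 11, at chr11:48861968-48871683 on the minus strand for Irgm1 and on the plus strand at chr11:58199618-58222782 for Irgm2 and chr11:58199556-58207591 for Igtp. Irgm1 was the most even member at 30 °C, with 103.0, 103.6 and 103.0 CPM, and stood at 88.6 and 85.2 CPM at 4 °C. Both cold tumours were below all warm ones. The means were 103.2 ± 0.336 (SD, n = 3) and 86.9 ± 2.35 (SD, n = 2). The log2 fold change was −0.25 (SE 0.15, 95% interval −0.62 to 0.12, edgeR adjusted p = 0.82) and stayed between −0.27 and −0.24 when any 1 tumour was left out. The SD of Irgm1 at 30 °C is far below the spread of the other members, and the test borrows its estimate of spread from all genes. As CPM without TMM scaling, Irgm1 ranged from 76.3 to 116 at 30 °C and from 87.9 to 95.7 at 4 °C, and the groups overlapped, whereas those of Gbp2 and Gbp6 did not overlap on that scale either. On it, 16.4% of all genes did not overlap, 11.0% higher and 5.41% lower.
Irgm2 measured 67.1, 52.6 and 62.7 CPM at 30 °C and 63.7 and 52.0 CPM at 4 °C. Igtp measured 93.3, 71.0 and 72.3 CPM at 30 °C and 83.8 and 93.5 CPM at 4 °C. The groups overlapped in both, and the log2 fold changes were −0.073 (SE 0.19) and 0.17 (SE 0.19), with adjusted p of 0.95 and 0.89 from edgeR. Without 30 °C replicate 2 they were −0.18 and 0.085. When any 1 tumour was left out, that of Irgm2 ran from −0.23 to 0.052 and that of Igtp from 0.072 to 0.31. Irgm2 and Igtp overlap and share 162 exon bases on the same strand, or 4.39% of those of Irgm2 and 8.01% of those of Igtp.
Iigp1, chr18:60376027-60392634 on the plus strand, encodes an effector IRG protein that is loaded onto the vacuole of Toxoplasma. It measured 51.1, 39.6 and 39.5 CPM at 30 °C and 46.6 and 49.4 CPM at 4 °C, with 30 °C replicate 1 above both cold tumours. The log2 fold change was 0.15 (SE 0.19, 95% interval −0.31 to 0.60, edgeR adjusted p = 0.91), and it was 0.072 without 30 °C replicate 2 and 0.28 without 30 °C replicate 1.

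**Figure D3:**
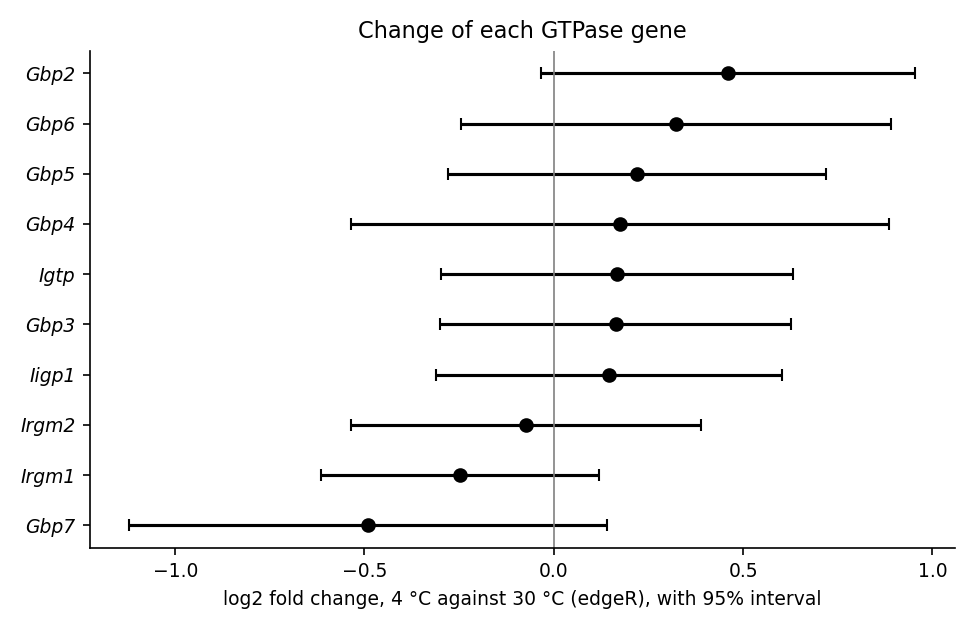
Log2 fold change of each member at 4 °C against 30 °C (horizontal axis, edgeR, 3 against 2 tumours); points are estimates and bars their 95% intervals. All 10 intervals include 0, from Gbp7 at −0.49 to Gbp2 at 0.46.

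The members did not follow a single pattern across the 5 tumours. On the log2 scale, the distance between the highest and the lowest tumour ranged from 0.28 for Irgm1 to 1.05 for Gbp7, with a median of 0.48 over the members. Over the 10523 tested genes with a mean of at least 3 log2 CPM this median was 0.63. In 30 °C replicate 1, Gbp3 and Gbp4 had their lowest level, and Irgm2 and Iigp1 had their highest. In 4 °C replicate 2, Gbp2 and Igtp were highest, and Gbp7, Irgm1 and Irgm2 were lowest. Igtp and Iigp1, which lie on different chromosomes, were both above their mean in 30 °C replicate 1 and in the cold tumours and below it in the other warm tumours, by at most 0.21.
By the root mean square difference of centred log2 CPM over the 5 libraries, Gbp3 lay nearest to the mean profile of the members (0.11) and Gbp7 farthest from it (0.37). Of 10512 genes outside the members, the 5 nearest to this mean profile were Cpsf3 (0.013), Dpf2 (0.019), Hdac1 (0.024), Gpr107 (0.026) and Mark2 (0.026). The mean profile itself spanned 0.27 on the log2 scale, so that these genes are above all genes of nearly even level.

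**Figure D4:**
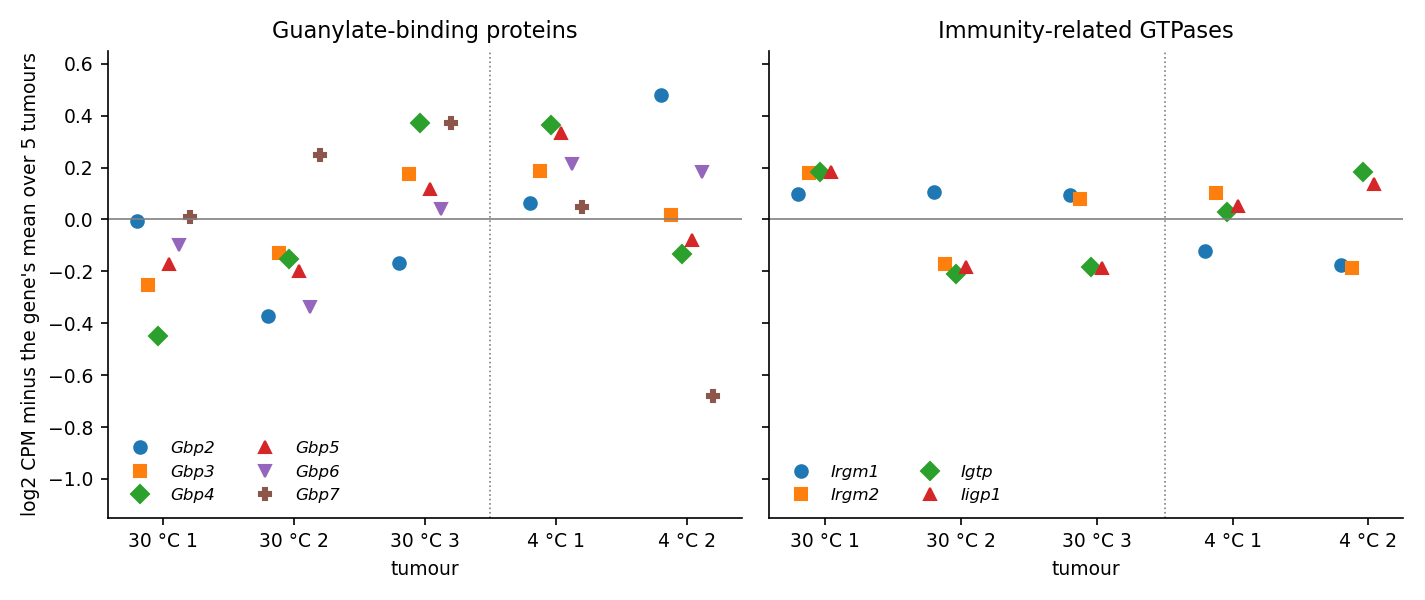
Log2 CPM of each member minus its own mean over the 5 tumours (vertical axis) by tumour (horizontal axis), with guanylate-binding genes on the left, immunity-related genes on the right, and a dotted line between 30 °C and 4 °C. The points fan out in 4 °C replicate 2, from Gbp7 at −0.68 to Gbp2 at 0.48.

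Other GTPase genes of these and related families showed no call either. The 20 symbols were mostly GBP and IRG relatives, with the very large inducible GTPases Gvin1 and Gm4070 and the dynamin-like antiviral GTPases Mx1 and Mx2 among them. Of these, 18 were tested, 5 with a positive and 13 with a negative log2 fold change, and the median was −0.15. None passed an adjusted p of 0.05 with edgeR or DESeq2, and at an unadjusted p under 0.05 there were 0 with edgeR. Gbp8 had 13.1, 16.1 and 22.4 CPM at 30 °C and 26.0 and 26.6 CPM at 4 °C, with a log2 fold change of 0.61 (SE 0.26, edgeR adjusted p = 0.74), and the groups did not overlap. For Irgc1 the log2 fold change was 0.66 (SE 0.36, edgeR adjusted p = 0.79), and for Gm4070, from the family of very large interferon-inducible GTPases, it was −0.59 (SE 0.33, edgeR adjusted p = 0.80). Tgtp1 and Tgtp2, which share the GAS and ISRE order of Irgm2 and Igtp, had log2 fold changes of 0.23 and −0.14. They are near-identical copies, so the split of reads between them is uncertain. The median of this list was −0.67 without 4 °C replicate 1, 0.082 without 30 °C replicate 3 and 0.16 without 4 °C replicate 2, so that its sign rested on single tumours.

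Upstream of the members, the ligand Ifng was low, with 0.905, 1.07 and 0.961 CPM at 30 °C and 0.995 and 1.26 CPM at 4 °C. The groups overlapped, and the log2 fold change was 0.20 (SE 0.40, edgeR adjusted p = 0.94). The type I genes Ifnb1, Ifna1, Ifna2 and Ifna4 were at 0 counts in all 5 libraries. A count of 0 allows up to 3 counts, a level of 0.148 to 0.185 CPM without TMM scaling. Of the 12 interferons and inducing cytokines, 6 were tested, 4 positive and 2 negative, and those with the smallest p were Il27, Il12a and Il18, at log2 fold changes of −0.74, 0.30 and −0.32.
The 17 genes of interferon receptors and signalling were all tested, 9 positive and 8 negative, with a median of 0.030. Irf1, a transcription factor that interferon-γ induces, stood at 104, 86.3 and 125 CPM at 30 °C and at 124 and 132 CPM at 4 °C, giving a log2 fold change of 0.28 (SE 0.20, edgeR adjusted p = 0.84). Irf7, which amplifies the type I interferon response, measured 190, 241 and 184 CPM at 30 °C and 100.3 and 94.5 CPM at 4 °C. Its groups lay far apart, with a log2 fold change of −1.07 (SE 0.19). The adjusted p was 0.69 with edgeR, which was also the lowest over all genes tested. DESeq2 called Irf7 alone of the 17. It called 0 of them without 30 °C replicate 2, where its calls over all genes fell from 118 to 3. Usp18 and Irf9, next by p, had log2 fold changes of −0.43 and −0.30.

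Downstream, the other targets of interferon-γ and the targets of type I interferon had medians of opposite sign. Of 20 other interferon-γ targets 18 were tested, 14 positive and 4 negative, with a median log2 fold change of 0.27, and 0 passed with either tool. Psmb8, a subunit of the immunoproteasome, measured 232, 211 and 247 CPM at 30 °C and 304 and 378 CPM at 4 °C, giving a log2 fold change of 0.57 (SE 0.17, edgeR adjusted p = 0.69). Cxcl10 and Cxcl9, which attract T cells, had log2 fold changes of 0.79 (SE 0.26) and 0.79 (SE 0.29), with adjusted p of 0.69 and 0.71 from edgeR. The groups did not overlap in any of these 3 genes, which were named for their small p. In the list, 6 of the 18 tested genes lay higher without overlap and 0 lower, against 12.2% and 11.0% of all genes. At an unadjusted p under 0.05 there were 3 positive genes in the list and 0 negative ones, against 2.58% positive and 4.17% negative over all genes. Without 30 °C replicate 2 or 4 °C replicate 2 there were 0 such genes. The median was 0.44 without 4 °C replicate 1 and 0.15 without 4 °C replicate 2.
Of 23 type I interferon targets, 22 had a negative log2 fold change, with a median of −0.71. With edgeR 0 passed the adjusted threshold and 10 were negative at an unadjusted p under 0.05, against 4.17% negative over all genes. DESeq2 called 6, which were Oas1a, Oas2, Oas3, Oasl1, Oasl2 and Ifi44, against 0.731% of all genes. Without 30 °C replicate 2 it called 0 of the list, and its calls over all genes fell from 118 to 3. Oas2, an RNA sensor that makes oligoadenylates, measured 26.3, 22.2 and 17.5 CPM at 30 °C and 7.91 and 7.19 CPM at 4 °C, giving a log2 fold change of −1.54 (SE 0.25, edgeR adjusted p = 0.69). Ifi44 and Oasl2 had log2 fold changes of −1.27 and −1.12. Without 30 °C replicate 2 the list held 21 negative genes and a median of −0.65. In that edgeR fit 9 of the 23 had an unadjusted p under 0.05, against 3.24% of all genes. The members, with a median of 0.17, stood nearer to the interferon-γ targets than to the type I targets. Their relatives among the other GTPase genes, with a median of −0.15, stood between these lists. Without 4 °C replicate 1 the medians were 0.039 for members, 0.44 for interferon-γ targets, −0.67 for relatives and −0.78 for type I targets. The difference between the lists was not tested. ISRE letters were in the windows of 11 of 19 type I targets and 2 of 12 other interferon-γ targets, against 3.99% of all genes. GAS letters were in those of 4 of 19 type I targets and 2 of 12 other interferon-γ targets, against 9.55% of all genes.

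**Figure D5:**
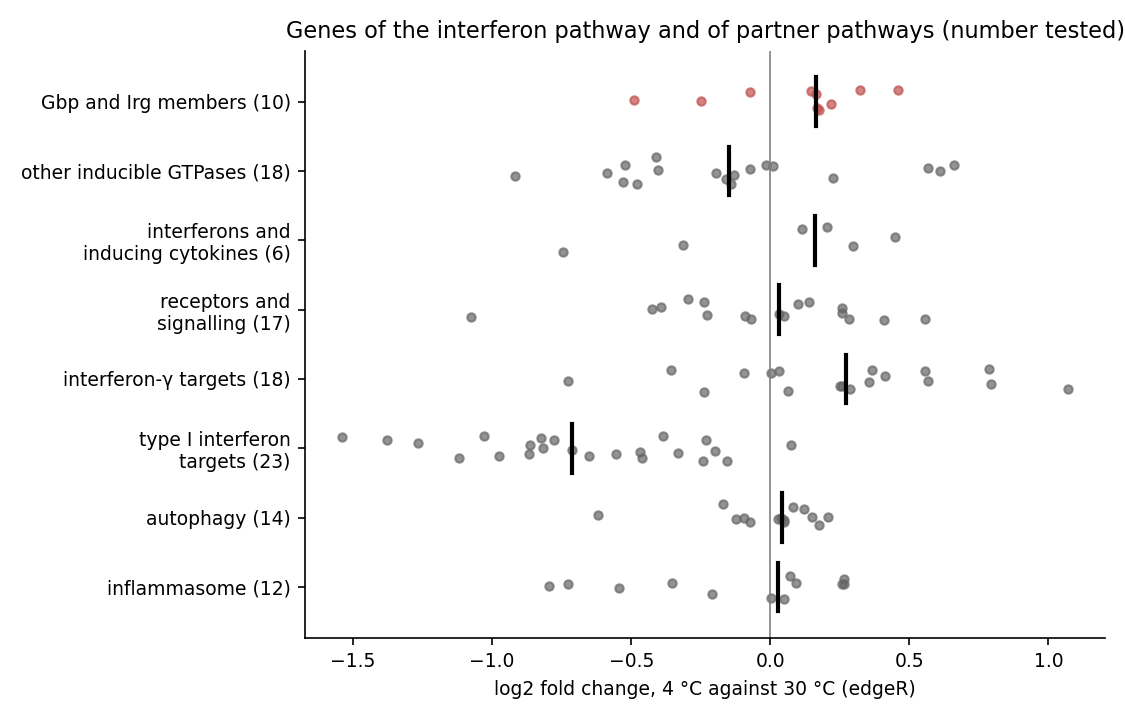
Log2 fold change at 4 °C against 30 °C (horizontal axis, edgeR) of every tested gene of the 10 members (red) and of 7 lists (grey), with the number tested in brackets; black strokes mark medians and vertical scatter has no meaning. The members lie within 0.5 of 0, and the type I interferon targets lie almost all to the left, with a median of −0.71.

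The lists of partner pathways had medians near 0. The 14 autophagy genes were 11 of the conjugation machinery and its ubiquitin-like substrates, part of which guides GBPs and IRGs to vacuoles, together with Ulk1, Becn1, which acts in a lipid kinase complex, and the cargo receptor Sqstm1. They had 9 positive and 5 negative log2 fold changes and a median of 0.043, and the 12 inflammasome genes had 7 and 5 and a median of 0.027. None passed with edgeR or DESeq2. At an unadjusted p under 0.05 with edgeR, against 6.76% of all genes (4.17% negative), each list held 1 gene, negative in both. These were Ulk1, a kinase that starts autophagy, at −0.62 (SE 0.21, edgeR adjusted p = 0.69), and Nlrp3, at −0.73 (SE 0.23, edgeR adjusted p = 0.69). The signs of both lists rested on single tumours. Without 4 °C replicate 2 the autophagy list had 1 positive and 13 negative genes and a median of −0.12. Its median was −0.029 without 30 °C replicate 3. It was −0.033 with the replicate block, where 30 °C replicate 3 does not enter the comparison either. The median of the inflammasome list was −0.13 without 30 °C replicate 1, −0.033 without 30 °C replicate 2 and −0.17 without 4 °C replicate 1. The next by p were Becn1 and Gabarapl2, at −0.17 and 0.18, and Mefv and Il1a, at −0.54 and −0.80.

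Markers of cell types that make interferon-γ or express the members were read beside these values. All 10 T cell markers had positive log2 fold changes, with a median of 0.81, and their sum was 267 to 448 CPM at 30 °C and 591 to 603 CPM at 4 °C. With edgeR 0 of them passed the adjusted threshold and 6 were positive at an unadjusted p under 0.05, against 2.58% of all genes. DESeq2 called 4, against 0.731% of all genes. It called 0 of them without 30 °C replicate 2, and 3 genes in all. Without that tumour all 10 were still positive with edgeR, with a median of 0.80. All 10 B cell markers were positive too (median 0.69), with sums of 1395 to 3706 CPM at 30 °C and 3423 to 4153 CPM at 4 °C. All 11 neutrophil markers were negative (median −1.34), with sums of 2945 to 12504 CPM at 30 °C and 2486 to 4003 CPM at 4 °C. At an unadjusted p under 0.05 with edgeR, 2 B cell markers were positive, against 2.58% of all genes. At that threshold 3 neutrophil markers were negative, against 4.17%. DESeq2 called 0 of either list. Without 30 °C replicate 1 the B cell and neutrophil medians were 0.40 and −0.79. Without 4 °C replicate 1, 8 B cell markers were positive. Macrophage markers summed to 1552 to 2074 CPM at 30 °C and 1671 to 2488 CPM at 4 °C, with 6 of 9 tested markers positive. For dendritic cell markers, of which 7 of 8 were positive, the sums were 123 to 226 and 180 to 218 CPM, and for natural killer cell markers, of which 4 of 8 were positive, 66.6 to 174 and 116 to 118 CPM. No marker of these 6 lists had 0 counts in all libraries. The markers of splenic stroma were positive in 7 of 8 cases, with sums of 289 to 365 CPM at 30 °C and 417 to 464 CPM at 4 °C. With edgeR 4 of the 8 were positive at an unadjusted p under 0.05, against 2.58% of all genes. DESeq2 called Cxcl13 alone of the 8, against 0.731% of all genes. The part of these cell types in the values of the members was not tested.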

How the data were processed

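RNA of 5 tumours was sequenced. The deposited values are counts of reads per gene symbol that the authors made without normalization; the paper names featureCounts and Gencode vM19, and the submitters' processing notes name fastp, HISAT, RSEM and GRCm38, without saying which step made the table. Entries without a name (0.0101% to 0.0170% of counts) were left out. A symbol stood on more than 1 entry in 97 cases, none of them a member, and its most abundant entry was used. Positions come from GENCODE M21 on GRCm38 and start regions from RefSeq on GRCm38.p6.

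Counts were filtered with filterByExpr, scaled by TMM and compared with the robust quasi-likelihood test of edgeR 4.0.16 in R 4.3.3, with no covariate and Benjamini-Hochberg adjustment over 16133 genes (threshold 0.05). Log2 CPM used a prior count of 2. A count of 3 was the floor. The Wald test of DESeq2 1.42.0, other scalings and filters, the replicate block and each tumour left out were alternatives. The fit was tested on simulated data, in which 200 of 16133 genes changed by a log2 of 2. At the adjusted threshold, 55.5% of the changed genes were called, and 8.26% of the calls were false. Changes as small as those of the members were not simulated.

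Members and lists were chosen with earlier results of these data known. Named genes were all members, Ifng, Irf1, a gene not reported here, the 3 genes with the smallest p of each list and the 5 nearest in profile; relatives beyond these were picked with their values known. The labels call the tumours separate samples, and the methods give 200 ng RNA for each group, so p-values measure the spread between these samples. Protein sequences were not used here.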

Additional observations from a re-analysis of the deposited data

How the results depend on the processing

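Under the 14 alternatives, 0 members were called, with adjusted p from 0.62 to 1.00, and 137 of 140 fitted changes kept their sign. The exceptions were Gbp4, at −0.095 without 4 °C replicate 1 (range −0.095 to 0.44 with each tumour left out), and Irgm2, at 0.0030 without 30 °C replicate 1 and 0.052 without 4 °C replicate 2 (range −0.23 to 0.052). The median log2 fold change of the members ran from 0.039 (without 4 °C replicate 1) to 0.20 with each tumour left out. Without 4 °C replicate 1, 2 members (Gbp2 and Gbp7) had an unadjusted p under 0.05 with edgeR, against 7.68% of all genes in that fit. The 3 members whose groups do not overlap became 2 in CPM without TMM scaling and 3 to 6 with each tumour left out, both added after seeing the data: 6 without 30 °C replicate 1, 30 °C replicate 3 or 4 °C replicate 1 (against 38.9%, 38.7% and 59.5% of all genes), 5 without 4 °C replicate 2 (49.4%) and 3 without 30 °C replicate 2 (29.2%). Fewer tumours make separation easier by construction. A fit without a cold tumour assumes that the lone one varies like the warm ones.

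Over all genes, the count of calls rose from 0 to 118 with DESeq2 and to 44 with the replicate block, and it was 3 with DESeq2 without 30 °C replicate 2, which was added after seeing the data. It was 0 under every other alternative. The cause of these differing counts was not tested. Of the 44 calls with the block, 16 were markers of pancreatic acinar cells. Replicate number 3 stands only at 30 °C, so with the block that tumour does not enter the comparison of temperatures. With edgeR 1090 genes had an unadjusted p under 0.05, 417 higher and 673 lower, against 558 and 570 with upper-quartile scaling, and 520 without 30 °C replicate 2. Whether the replicate numbers pair the tumours could not be told. Deviations from the group means correlated at −0.25 for number 1 and 0.26 for number 2 (over 16133 genes). With 2 cold tumours, the deviations of the cold tumours mirror each other. Each warm tumour thus correlates with both to the same degree and with opposite sign. The block changed no call of a member.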

Other observations

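A few relatives of the members varied among the tumours more than the members did, without following temperature. They were chosen after their values had been seen. Gbp9, of the chromosome 5 cluster, measured 41.9, 64.9 and 96.5 CPM at 30 °C and 90.0 and 38.9 CPM at 4 °C. The IRG family genes 9930111J21Rik1 and 9930111J21Rik2, neighbours on chromosome 11, showed the same order of tumours. The first measured 2.39, 14.0 and 22.0 CPM at 30 °C and 16.9 and 0.959 CPM at 4 °C, and the second 14.8, 39.9 and 60.4 CPM at 30 °C and 48.5 and 9.17 CPM at 4 °C. In all 3 genes, 30 °C replicate 1 and 4 °C replicate 2 were lowest and 30 °C replicate 3 was highest, so that each temperature held a low and a high tumour. Gbp4, which shares 60 exon bases with Gbp9, had the same highest and the same lowest warm tumour. Over all genes tested, deviations from the group means correlated at 0.62 between 30 °C replicate 3 and 4 °C replicate 1, as a description over 16133 genes of 5 libraries. The value with 4 °C replicate 2 was −0.62 by construction, since the deviations of 2 cold tumours mirror each other.

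The predicted gene Gm12185, which shares the order of GAS and ISRE letters with Irgm2, Igtp, Tgtp1 and Tgtp2, measured 2.34, 2.05 and 3.58 CPM at 30 °C and 3.88 and 2.88 CPM at 4 °C, with overlapping groups.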
